A study of Rattus norvegicus with 48 samples.

Results

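The serum miRNAs of wild-type (WT) rats given an anti-sclerostin antibody were compared with those of WT rats given placebo. The members were chosen by their labels alone, as the serum libraries of group WT with the treatments anti-sclerostin (n = 4) and Placebo (n = 5), which gave 9 of the 48 libraries of the series. The WT rats were Zucker lean rats (ZDF +/+), the non-diabetic counterpart of Zucker diabetic fatty (ZDF fa/fa) rats, which lack a functional leptin receptor. All animals were male, were fed the same high-fat, high-carbohydrate chow and carried a surgical defect at the midshaft of the femur, so the placebo rats were healing a bone defect too. Treatment started at the same age in both groups, and serum was taken at week 12. Placebo was injected daily and the antibody less often. The study's table traces the animals of these groups to different earlier experiments. Treatment, injection schedule and source experiment therefore cannot be told apart. Each library held the small RNAs of a serum sample.

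Sclerostin is a protein secreted by osteocytes that blocks Wnt signaling through the coreceptors LRP5 and LRP6 on bone-forming cells. Antibodies against it release that brake and raise bone formation. MiRNAs are short RNAs that guide Argonaute proteins to mRNAs through their seed, the stretch near their 5′ end that pairs with the target. In serum they travel in vesicles or bound to proteins, and they are shed by many tissues and by blood cells. In such a mixture, fewer cells of a type and less RNA per cell cannot be told apart.

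The results turned on 5 mature miRNAs. These were the 4 that passed the threshold of the main test and miR-145-3p, which the study names for this comparison and which had too few reads to enter that test. Their RefSeq sequences (build GRCr8) are printed 5′ to 3′ with the seed, bases 2 to 8, in capitals.
rno-miR-143-3p: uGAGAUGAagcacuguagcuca
rno-miR-145-3p: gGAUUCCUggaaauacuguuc
rno-miR-199a-3p: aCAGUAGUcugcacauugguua
rno-miR-3473: uCUAGGGCuggagagauggcua
rno-miR-451-5p: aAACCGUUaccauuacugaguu

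No other mature miRNA of the RefSeq table, which held 693 names, had any of these 5 seeds. The genes of miR-143-3p (chr18:57371373-57371394, minus strand) and miR-145-3p (chr18:57369997-57370017, minus strand) are neighbours, and 1278 bases separated their hairpins. The sequence of miR-199a-3p was listed at Mir199a2 (chr13:77116294-77116315, plus strand), that of miR-451-5p at Mir451a (chr10:63459585-63459606, plus strand) and that of miR-3473 at chr13:42051730-42051751 on the plus strand. The arms of the Mir145 hairpin, from which reads of both miR-145-5p and miR-145-3p derive, are shown in capitals (chr18:57369983-57370070, minus strand, 88 bases), because they differed in level and in fold change.
Mir145: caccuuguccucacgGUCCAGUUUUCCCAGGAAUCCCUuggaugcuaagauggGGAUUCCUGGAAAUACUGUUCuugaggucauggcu

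The 9 libraries held 47357 to 161686 reads counted on miRNAs under anti-sclerostin and 64957 to 205664 under placebo. Of 763 miRNAs listed, 483 had at least 1 read and 213 had reads in all 9 libraries. The groups did not differ beyond their spread in miRNA reads (exact permutation p = 0.444), number of miRNAs detected (exact permutation p = 0.325) or reads of the extraction controls, synthetic RNAs added to the lysed serum (exact permutation p = 0.54). The most abundant miRNAs were the blood miRNAs miR-191a-5p, miR-92a-3p, miR-486, miR-16-5p and miR-451-5p, and miR-122-5p, which defines hepatocytes, was at 95.6 to 331 CPM (miRNA counts scaled to a fixed library size). Placebo libraries 3 and 5 stood apart. Their median correlation with the other libraries was lowest, at 0.862 and 0.873 on the log2 scale, and the level of miR-451-5p over that of miR-23a-3p, a measure of red cell RNA in serum, was 3.240 and 3.297 as a log2 ratio. In the other placebo libraries this ratio was −0.51 to 0.79, and under anti-sclerostin it was −1.58 to 0.56. The denominator miR-23a-3p was itself lowest in placebo library 3, at 9810 CPM. miR-486, also a red cell miRNA, was at 64720 and 82720 CPM in placebo libraries 3 and 5, below placebo library 4 at 120300 CPM. The difference of the ratio between the groups, −1.94 on the log2 scale, had an exact permutation p of 0.0873. The calls, the miRNAs described by their levels in these 2 libraries and the medians of the marker lists are also given without them.

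In the main test miR-451-5p, miR-143-3p, miR-199a-3p and miR-3473 were called lower in sera of anti-sclerostin treated WT rats than in placebo sera. Their log2 fold changes were −2.03 to −1.29. No miRNA was higher at the same threshold. These 4 were called among 108 miRNAs tested, 3.7% of them, at an FDR below 0.2, where FDR is the Benjamini-Hochberg adjusted p of edgeR's quasi-likelihood test. In the fit, 171 miRNAs passed a filter on low counts, and the 108 had a mean of at least 331 CPM after TMM normalization, which scales each library to the bulk of its miRNAs. The lowest FDR was 0.155. The cut at 331 CPM was the one that gave the most calls, and without this step no miRNA was called. At an unadjusted p below 0.05 there were 18 of the 171 miRNAs (10.5%), 15 lower (8.77%) and 3 higher (1.75%). Over all 171, 91 log2 fold changes were below 0 and 80 above, with a median of −0.11.

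The number of calls depended on single libraries. It was 0 without anti-sclerostin library 1, 14 without placebo library 1 (7 higher and 7 lower), 9 without placebo library 2 and 1 without placebo library 5. It was 2 without placebo library 3 or 4 and also without anti-sclerostin library 2 or 3. Without both placebo libraries 3 and 5 the remaining call was miR-143-3p, among 31 miRNAs tested. The filter on mean CPM was set anew in each fit, so these counts are not shares of the same 108 miRNAs. With all 483 miRNAs with a read in the fit, 17 of 305 tested (5.57%) were called, 15 lower (4.92%) and 2 higher, and all 4 miRNAs were among them. Without placebo libraries 3 and 5 that fit called 5 of 322 tested, all among the 17. These were miR-143-3p, miR-145-3p, miR-199a-3p and miR-3473 as lower and miR-217-5p as higher. Their exact permutation p was then 0.0571, 0.0571, 0.114, 0.114 and 0.514 in the same order, where the smallest possible was 0.0286. In earlier simulations without a change, a fit of all miRNAs with a read gave calls in nearly all runs, so its calls are less certain. Scaling to the extraction controls moved the median log2 fold change of the fitted miRNAs to −0.86, and 27 miRNAs were then called lower. All 4 remained among these.

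**Figure D1:**
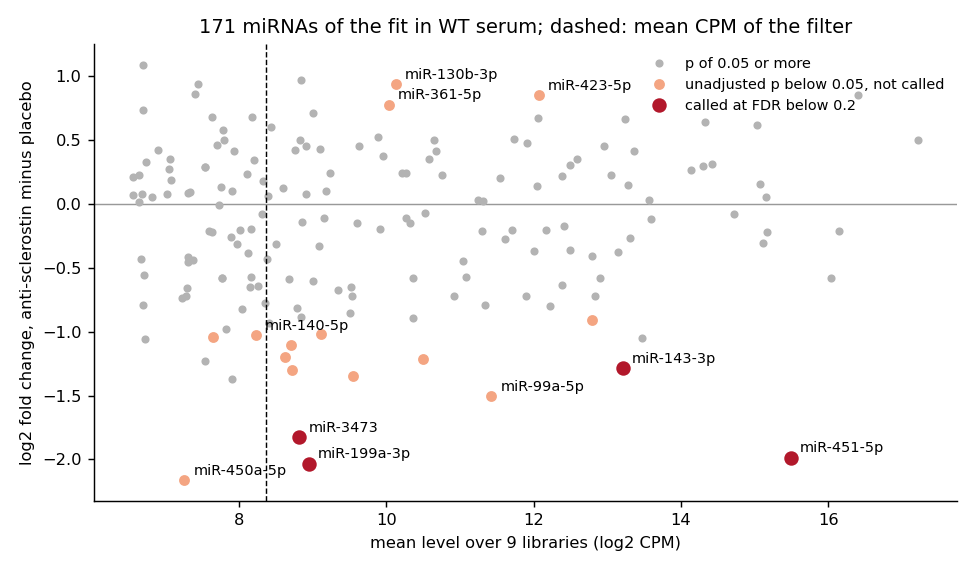
Log2 fold change, anti-sclerostin minus placebo, against the mean log2 CPM of each of the 171 miRNAs in the fit, with the 18 miRNAs at an unadjusted p below 0.05 coloured and the mean CPM of the filter as a dashed line. The 4 called miRNAs lie below −1, and miR-451-5p is by far the most abundant of them.

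The neighbouring genes Mir143 and Mir145 give miRNAs that are abundant in smooth muscle, fibroblasts and other mesenchymal cells. In the sera of anti-sclerostin treated rats, miR-143-3p was at 3735, 4973, 4729 and 7668 CPM. In the placebo sera it was at 21120, 8101, 17270, 10260 and 7491 CPM. The groups overlapped only where the highest anti-sclerostin serum exceeded the lowest placebo serum. The means were 5276 ± 1682 CPM (SD, n = 4) and 12850 ± 6038 CPM (SD, n = 5), and the log2 fold change was −1.29 with a standard error of 0.39 (edgeR FDR = 0.155, exact permutation p = 0.0397). It was −1.28 without placebo libraries 3 and 5 and still called, among 31 miRNAs tested (edgeR FDR = 0.194, exact permutation p = 0.0571). Leaving out a library kept the log2 fold change between −1.41 and −0.89. It was not called without anti-sclerostin library 1, 2 or 3, where it was −1.26 to −1.07 on the log2 scale.

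The minor arm of the neighbouring hairpin, miR-145-3p, was counted with few reads. It had 1, 5, 4 and 1 reads under anti-sclerostin and 56, 6, 33, 4 and 18 reads under placebo. Scaled to library size these were 12.3, 52.4, 25.4 and 19.1 CPM against 296, 64.0, 260, 58.6 and 137 CPM. Every placebo serum was above every anti-sclerostin serum in CPM, although the nearest pair had 5 and 4 reads. A separation in either direction was found for 8 of the 483 miRNAs with a read (1.66%), about the share that random division of the sera would give. The exact permutation p was 0.0159. In the fit of all miRNAs with a read its log2 fold change was −2.46 with a standard error of 0.71 (edgeR FDR = 0.0367). Without placebo libraries 3 and 5 it was −2.29 (edgeR FDR = 0.111, exact permutation p = 0.0571).

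The major arm of the same hairpin did not share this pattern. miR-145-5p was at 1430, 3476, 1750 and 5641 CPM under anti-sclerostin and at 4874, 3448, 3223, 3255 and 2860 CPM under placebo. Its log2 fold change was −0.21 with a standard error of 0.40 (edgeR FDR = 0.752, exact permutation p = 0.421), and the sign turned without placebo library 1 or without anti-sclerostin library 1 or 3. Its 95% interval was −1.04 to 0.63 on the log2 scale. The minor arm of Mir143, miR-143-5p, had 0 to 4 reads and 2 to 7 reads in the 2 groups. Of the 4 members of the cluster, 2 were in the main fit and 1 of these was called lower, where 3.7% of all tested miRNAs were.

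**Figure D2:**
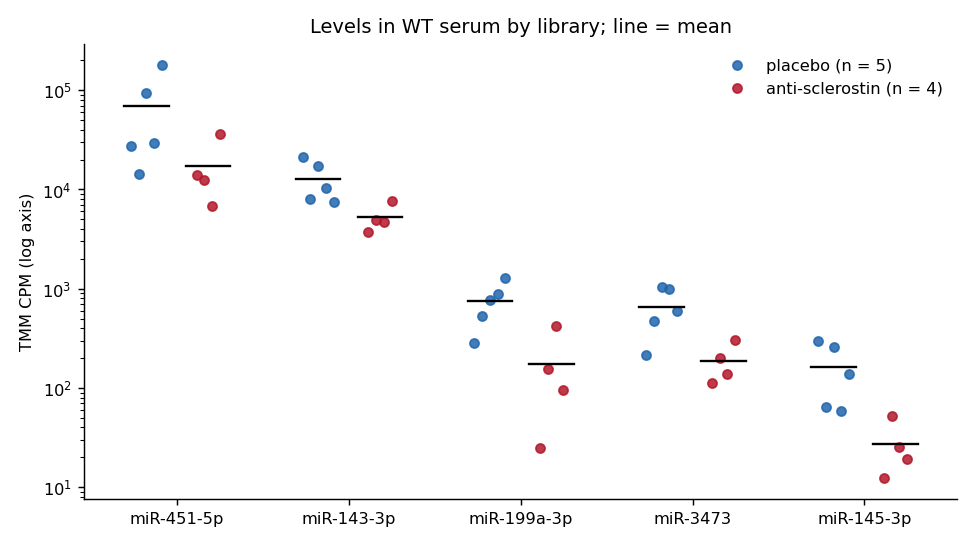
TMM CPM of 5 miRNAs in each library on a log axis, with a line at the group mean, for 5 placebo sera and 4 anti-sclerostin sera. Each anti-sclerostin mean lies below its placebo mean, and the points overlap for the 4 called miRNAs but not for miR-145-3p.

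miR-199a-3p is carried with miR-214 in a primary transcript of mesenchymal cells, osteoblasts among them. It was at 24.7, 157, 418 and 95.6 CPM under anti-sclerostin and at 285, 534, 772, 894 and 1278 CPM under placebo. Only anti-sclerostin serum 3 reached into the placebo range, above placebo serum 1. The log2 fold change was −2.03 with a standard error of 0.62 (edgeR FDR = 0.155, exact permutation p = 0.0238). These levels rested on 2 to 66 reads under anti-sclerostin and 50 to 168 reads under placebo.

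Leaving out a library kept the log2 fold change of miR-199a-3p between −2.92 and −1.66. It stayed called in 2 of 9 such fits, those without placebo library 1 or 2. Its mean level was below the filter in 5, those without anti-sclerostin library 2 or 3 or placebo library 3, 4 or 5. Without anti-sclerostin library 1 or 4 its edgeR FDR was 0.587 and 0.475. Without both placebo libraries 3 and 5 the log2 fold change was −1.58, and it was not tested. The other arm, miR-199a-5p, was at 235 ± 180 CPM (SD, n = 4) and 362 ± 148 CPM (SD, n = 5), with a log2 fold change of −0.64 (standard error 0.58). miR-214-3p was at 477 ± 227 CPM (SD, n = 4) and 601 ± 344 CPM (SD, n = 5), a change of −0.33 on the log2 scale (standard error 0.48) that turned sign without placebo library 2 or anti-sclerostin library 1. miR-214-5p had no read in the 9 libraries.

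miR-451-5p is the dominant miRNA of red blood cells and is cut from its hairpin by Argonaute 2 without Dicer. It was at 13990, 12390, 6758 and 36410 CPM under anti-sclerostin and at 27160, 14270, 92730, 29060 and 180800 CPM under placebo. Placebo sera 3 and 5 were far above the others, and the remaining 3 placebo sera lay within the anti-sclerostin range. The log2 fold change was −1.99 with a standard error of 0.66 (edgeR FDR = 0.198), and the exact permutation p was 0.119. Without placebo library 5 it was −1.16 (edgeR FDR = 0.547), and without both placebo libraries 3 and 5 it was −0.39 (edgeR FDR = 0.891). It was also not called without anti-sclerostin library 1 (log2 fold change −1.84).

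The other erythrocyte markers did not pass the test. miR-144-3p, from the same primary transcript as miR-451-5p, was at 3370 ± 1759 CPM (SD, n = 4) and 5863 ± 3041 CPM (SD, n = 5), with a log2 fold change of −0.80 (edgeR FDR = 0.377). The log2 fold change was 0.42 for miR-144-5p and −0.21 for miR-486, a red cell miRNA, and both turned sign in an alternative. In placebo sera 3 and 5 miR-144-3p was at 5610 and 9606 CPM, and in placebo serum 4 at 8079 CPM. miR-144-5p was at 441 and 350 CPM in placebo sera 3 and 5, against 469 CPM in placebo serum 4. Of the 6 listed erythrocyte markers 4 were named in the files, all were detected and 1 was called (3.7% of all tested miRNAs were). Their summed level was 56080 to 109600 CPM under anti-sclerostin and 81290 to 273400 CPM under placebo. With this log2 ratio over miR-23a-3p as a covariate, no miRNA was called, and the log2 fold change was −1.13 for miR-143-3p, −1.84 for miR-199a-3p and −1.32 for miR-3473, with unadjusted p of 0.0239, 0.0487 and 0.0382.

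miR-3473 had the lowest unadjusted p of the fit, 0.00272. It was at 111, 199, 139 and 306 CPM under anti-sclerostin and at 216, 470, 1032, 997 and 593 CPM under placebo. Only the lowest placebo serum, library 1, was within the anti-sclerostin range. Its log2 fold change was −1.83 with a standard error of 0.53 (edgeR FDR = 0.155, exact permutation p = 0.0318). Leaving out a library kept it between −2.03 and −1.48, and it was called in 3 of these 9 fits, those without placebo library 1 or 2 or anti-sclerostin library 4. It was −1.54 and not tested without both placebo libraries 3 and 5.

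The letters of miR-3473 are not particular to its gene. Its bases 5 to 20, GGGCTGGAGAGATGGC as DNA, stood on either strand in 85 of 33469 RefSeq promoter windows (0.254%), each a stretch around the start of a gene. The same stretch of miR-143-3p, miR-145-3p, miR-199a-3p and miR-451-5p stood in 0 of them. Reads from other copies of this sequence could have been counted on miR-3473, so its count is uncertain.

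Beyond these 5, the fit of all miRNAs with a read called 12 others, 10 lower and 2 higher. In this fit the prior degrees of freedom were infinite, so that all miRNAs took their spread from a shared trend. The mesenchymal miRNAs miR-99a-5p and miR-100-5p belong to a family with near-identical sequences, whose counts may share reads. miR-99a-5p was at 727 to 2320 CPM and at 811 to 9424 CPM, highest in placebo sera 3 and 5, with a main log2 fold change of −1.51 (edgeR FDR = 0.341) that was −0.24 without these 2 sera. miR-100-5p was at 259 to 634 CPM and 278 to 2127 CPM, with a main log2 fold change of −1.35 (edgeR FDR = 0.341) and −0.38 without them. miR-497-5p, of the miR-15 seed family, was at 837 ± 445 CPM (SD, n = 4) and 1940 ± 1208 CPM (SD, n = 5), with −1.21 on the log2 scale (edgeR FDR = 0.341) and −0.46 without them. These are the 3 miRNAs next in line by p among the lower ones of the main test.

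miR-450a-5p, from an X-linked cluster, had 0 to 11 reads under anti-sclerostin and 6 to 63 reads under placebo. Its log2 fold change was −2.16 with a standard error of 0.73 in the main fit, where its mean level was below the filter, and −1.62 without placebo libraries 3 and 5, where it was not called in either fit. miR-190b-5p had 0 to 2 reads under anti-sclerostin and 2 to 14 under placebo (exact permutation p = 0.0159). miR-146a-3p, the minor arm of an inflammation-related hairpin, had no read in 4 anti-sclerostin sera and 0, 1, 1, 2 and 6 reads in the placebo sera. No fold change is given for either, since the reads were so few.

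Of the 7 listed striated muscle markers, 3 were called lower in that fit (4.92% of all tested miRNAs were), namely miR-133a-3p, miR-208b-3p and miR-499-5p. miR-1b, which is not on the list, was called lower too. miR-133a-3p, of skeletal and heart muscle, was at 2314 to 10760 CPM under anti-sclerostin and at 1436, 2071, 37720, 10950 and 21470 CPM under placebo. Both the lowest and the highest values were thus placebo sera, and the exact permutation p was 0.786. Its main log2 fold change of −1.05 (edgeR FDR = 0.457) became 0.59 without placebo libraries 3 and 5. The myosin miRNA miR-499-5p had 1 to 2 reads under anti-sclerostin and 0, 0, 19, 4 and 35 reads under placebo. miR-208b-3p, encoded in a myosin gene, had 0 to 3 reads against 2, 0, 10, 6 and 51 reads. miR-1b had 1 to 5 reads against 16, 1, 58, 8 and 25 reads, and its sequence differs from that of miR-1-3p, counted from the 5′ end, by G17A alone, so that these counts are uncertain. The high values fell on the sera with the high red cell ratio. Without these 2 sera the log2 fold change in that fit was 0.02 for miR-499-5p, −0.66 for miR-208b-3p and −1.37 for miR-1b, and none was called. The summed level of the 7 striated muscle markers, all of them detected, was 2390 to 10960 CPM and 1510 to 38950 CPM.

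**Figure D3:**
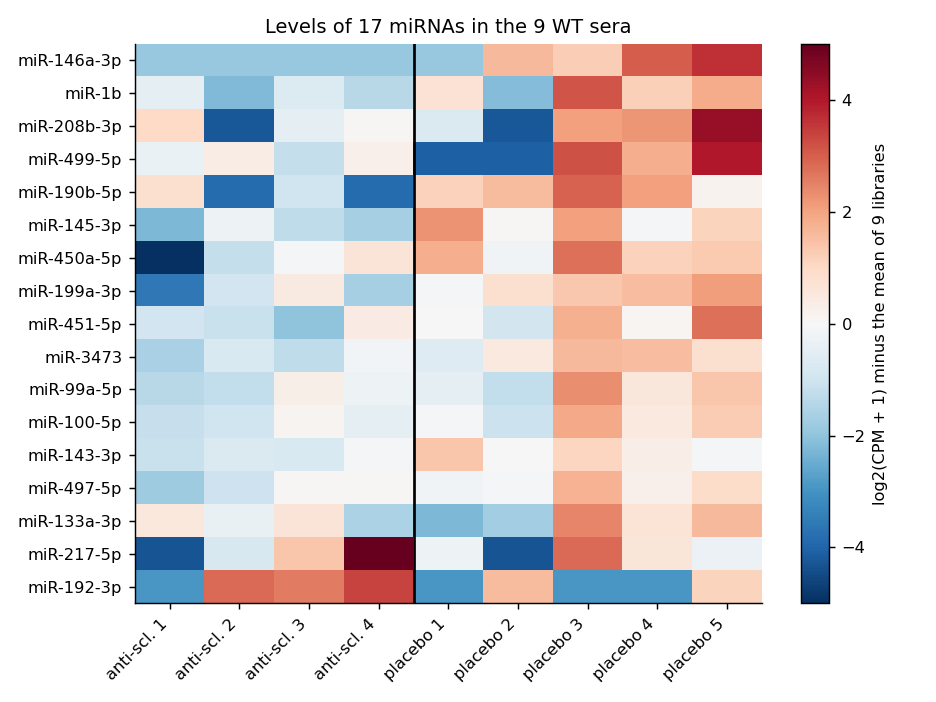
Log2(CPM + 1) minus the mean of the 9 libraries for the 17 miRNAs called when all miRNAs with a read entered the fit, ordered by fold change, with 4 anti-sclerostin sera left of the line and 5 placebo sera right of it. Placebo sera 3 and 5 are high for most of the lower miRNAs, while miR-143-3p and miR-145-3p are highest in placebo serum 1.

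The 2 called higher in that fit had few reads as well. miR-217-5p, a miRNA of pancreatic acinar cells, had 0, 1, 8 and 38 reads under anti-sclerostin and 3, 0, 18, 2 and 2 under placebo. Its log2 fold change of 2.23 (edgeR FDR = 0.0367) thus came with an exact permutation p of 0.762. miR-192-3p had 0, 5, 7 and 4 reads against 0, 2, 0, 0 and 2 (edgeR FDR = 0.165, exact permutation p = 0.175).

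Among miRNAs with many reads, the 3 with the smallest p on the higher side were miR-423-5p, miR-130b-3p and miR-361-5p, and none was called (edgeR FDR = 0.352 for each). miR-361-5p was at 1405, 1246, 1579 and 1224 CPM under anti-sclerostin and 1077, 1014, 575, 733 and 578 CPM under placebo. The groups did not overlap (log2 fold change 0.78, standard error 0.36, exact permutation p = 0.0238). miR-423-5p, often used as a serum reference, was at 5732 ± 1812 CPM (SD, n = 4) and 3176 ± 1692 CPM (SD, n = 5), a change of 0.85 on the log2 scale (exact permutation p = 0.0556). miR-130b-3p was at 1523 ± 243 CPM (SD, n = 4) and 795 ± 476 CPM (SD, n = 5), a change of 0.94 on the log2 scale (exact permutation p = 0.0635). Without placebo libraries 3 and 5 these values were 0.57, 0.58 and 0.60 in the same order. Of the 5 most abundant miRNAs, the 4 other than miR-451-5p were not called. miR-191a-5p had 182200 ± 84570 CPM (SD, n = 4) under anti-sclerostin and 128500 ± 67750 CPM (SD, n = 5) under placebo, 0.50 on the log2 scale (edgeR FDR = 0.557). On the log2 scale the fold change was 0.85 for miR-92a-3p (edgeR FDR = 0.377) and −0.58 for miR-16-5p (edgeR FDR = 0.412), both of which are abundant in blood cells.

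The groups did not overlap for 4 of the 171 fitted miRNAs (2.34%), near the share that random division of the sera would give. These were miR-361-5p, miR-652-3p and both arms of miR-140, the miRNA of cartilage, and they moved in opposite directions. miR-140-5p was lower, at 210, 188, 209 and 153 CPM under anti-sclerostin and 317, 374, 394, 279 and 586 CPM under placebo. Its log2 fold change was −1.03 with a standard error of 0.43 and its exact permutation p was 0.00794, the smallest that 4 against 5 sera allow, but its mean was below the filter of the main test. miR-140-3p was higher, at 42480, 39140, 41430 and 42810 CPM under anti-sclerostin and 33130, 28680, 19590, 39000 and 14880 CPM under placebo. The anti-sclerostin sera were close to each other here, while the placebo sera were spread, with libraries 3 and 5 lowest. The log2 fold change was 0.62 with a standard error of 0.34 (edgeR FDR = 0.377, exact permutation p = 0.0318). Without placebo libraries 3 and 5 it was 0.34 for miR-140-3p and −0.72 for miR-140-5p, and the groups still did not overlap (exact permutation p = 0.0286 for each, the smallest that 4 against 3 sera allow). Single-miRNA permutation tests gave a p below 0.05 for 14 of the 171 miRNAs (8.19%), not adjusted for their number, and for 6 without placebo libraries 3 and 5.

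Lists of marker miRNAs were read against the 91 of 171 fitted miRNAs below 0 and their median of −0.11. Other mesenchymal miRNAs lay low, with 7 of 8 below 0, a median of −0.84 and 0 called. miR-99a-5p and miR-100-5p of this list were high in placebo sera 3 and 5, and without these sera 5 of 8 were below 0 with a median of −0.10. In this list miR-10b-5p was at 124 ± 37.0 CPM (SD, n = 4) and 262 ± 94.5 CPM (SD, n = 5), a change of −1.04 on the log2 scale below the filter, and miR-125b-5p had −0.85 (edgeR FDR = 0.457). All 4 endothelial markers were below 0 with a median of −0.65, and none was called. Without placebo sera 3 and 5 this was 3 of 4 with a median of −0.26, beside 85 of 167 fitted miRNAs below 0 in that fit. Of these, miR-126a-3p, the main miRNA of endothelium, was at 2803 ± 1220 CPM (SD, n = 4) and 4617 ± 1525 CPM (SD, n = 5), a change of −0.72 on the log2 scale (edgeR FDR = 0.377, exact permutation p = 0.103).

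Regulators of bone formation divided evenly around 0. Of 20 listed, 15 were in the fit, 8 were below 0 and 7 above, the median was −0.17 and 0 were called. miR-29b-3p, which targets collagen transcripts, had −0.32 on the log2 scale (edgeR FDR = 0.703). The platelet list had 4 of 6 above 0 with a median of 0.23, the leukocyte list 4 of 8 with a median of 0.05 and the liver list 2 of 4 with a median of 0.13, each with 0 calls. Epithelium had a median of 0.10 over 5 members, cartilage −0.18 over 4 and striated muscle −1.14 over 2. Neuron and pancreas had 1 fitted member each, miR-128-3p at 0.64 and miR-375-3p at 0.46. The common serum reference miRNAs had 8 of 10 above 0 and a median of 0.33. For the lists that hold called miRNAs, the median was −0.51 for erythrocytes, −0.75 for miR-143 and miR-145 and −0.64 for miR-199a and miR-214. Without placebo libraries 3 and 5 the medians were 0.17 for regulators of bone formation, 0.03 for platelets, −0.11 for leukocytes, −0.21 for liver, −0.13 for epithelium, −0.16 for cartilage over 3 members, −0.30 for erythrocytes and 0.15 for the reference miRNAs. Striated muscle, neuron and pancreas then had 1 member each, at 0.59, 0.44 and −0.08. The median was then −0.78 for miR-143 and miR-145 and −0.46 for miR-199a and miR-214.

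**Figure D4:**
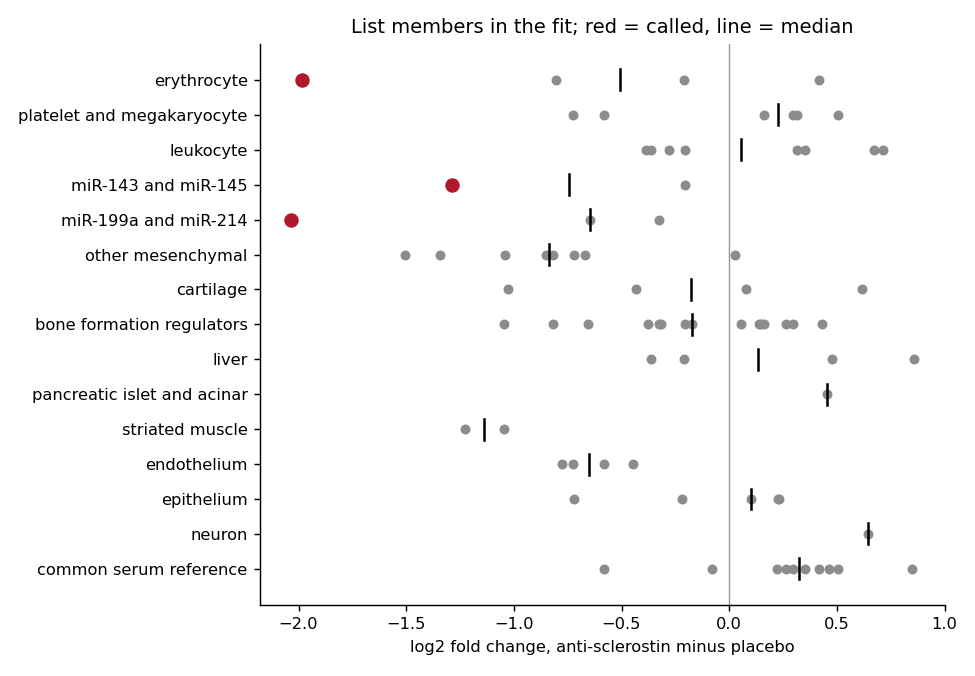
Log2 fold change, anti-sclerostin minus placebo, of each fitted member of 15 marker lists, with called miRNAs in red and a line at the list median. The 3 red points are miR-451-5p, miR-143-3p and miR-199a-3p, and the other members of their lists lie nearer to 0.

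The same treatment was given to ZDF rats, whose sera (4 anti-sclerostin, 5 placebo) share no library with the WT comparison. Their groups differ in injection schedule and source experiment in the same way, so these cannot be told apart from treatment here either. The difference of the responses, tested as an interaction over the 18 libraries, was called for 0 of 189 miRNAs (0% in edgeR, 0 in DESeq2), and 4 had an unadjusted p below 0.05. For miR-143-3p the log2 fold change was −1.29 in WT and −2.53 in ZDF sera (edgeR FDR = 0.124 in ZDF), and the 95% interval of the interaction was −0.33 to 2.74. The ZDF sera were at 2104 to 7912 CPM under anti-sclerostin and 7456 to 57200 CPM under placebo, again with a small overlap. For miR-199a-3p the ZDF log2 fold change was −1.44 (standard error 0.63), without an FDR because its mean level was below the filter. Its interaction was −0.62, with an interval of −2.60 to 1.35.

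In ZDF sera miR-3473 had a log2 fold change of −0.72 and miR-451-5p of −0.71, neither called, with interactions of −1.15 (interval −2.75 to 0.45) and −1.28 (interval −3.08 to 0.52). miR-145-5p was called lower in ZDF sera, at −1.38 (edgeR FDR = 0.186), against −0.21 in WT sera. Its interaction of 1.14 had an unadjusted p of 0.0504 and an edgeR FDR of 0.822. With all miRNAs with a read, 3 of 283 interactions were called (1.06%), those of miR-218a-5p, let-7f-2-3p and miR-150-3p. miR-218a-5p was at 68.1 to 359 CPM and 55.3 to 1035 CPM in WT sera and at 7.34 to 826 CPM and 11.2 to 89.6 CPM in ZDF sera, with anti-sclerostin given first. These ranges of miR-218a-5p overlapped in both genotypes. Scaled with both genotypes together, let-7f-2-3p was at 0 to 11.35 CPM and 11.06 to 47.22 CPM in WT sera, in the same order. In ZDF sera it was at 20.62 to 82 CPM and 0 to 11.2 CPM, without overlap. Its WT sera held few reads, 0 to 1 and 1 to 9. The log2 fold change of miR-150-3p was 0.97 in WT sera (edgeR FDR = 0.377) and −1.055 in ZDF sera (edgeR FDR = 0.455).

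**Figure D5:**
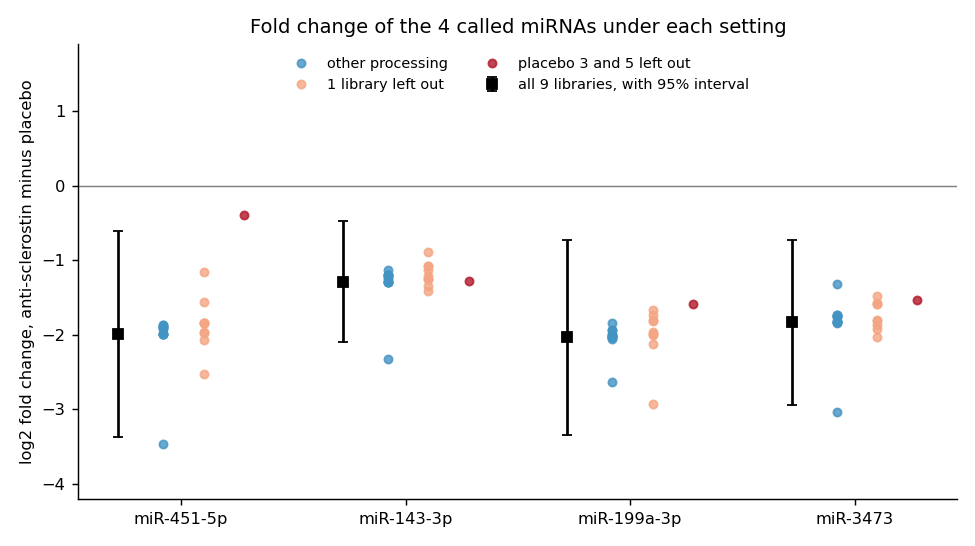
Log2 fold change of the 4 called miRNAs with all 9 libraries and its 95% interval (black), under other processing (blue), with 1 library left out (orange) and without placebo libraries 3 and 5 (red). All values are below 0. Nearest to 0 is miR-451-5p without placebo libraries 3 and 5, at −0.39, where miR-143-3p is at −1.28.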

How the data were processed

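Small RNA libraries were made from serum RNA, with synthetic controls added at extraction. The authors trimmed reads with cutadapt. Mapping used bowtie and miRDeep2, against the genome first and rat miRBase entries second, with a mismatch allowed, and reads were counted per mature miRNA. The deposited counts are whole numbers without normalization. The RPM values deposited by the authors are scaled to all reads of a library and gave library totals here. Their further column scaled to miRNA reads was not used.

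The test was edgeR 4.0.16 in R 4.3.3 (glmQLFit and glmQLFTest, legacy = TRUE, robust = FALSE, TMM), over WT anti-sclerostin and WT placebo sera only. FilterByExpr was followed by independent filtering on mean CPM (50 quantiles up to 0.95, the most calls at FDR below 0.2). DESeq2 1.42.0 was an alternative. Levels were also compared by exact two-sided permutation of log2(CPM + 1) over the 126 divisions of 9 libraries, the smallest p being 0.00794. For the ratio over miR-23a-3p, 0.5 reads were added to miR-451-5p and to miR-23a-3p. Tests were checked on simulated data. In earlier simulations without a change, a fit of all miRNAs with a read gave calls in nearly all runs. With filterByExpr there were clearly fewer, so it was put first. In 16 pairs of libraries of a group, the lowest chi-squared per degree of freedom was 34.7, so none was counted as a duplicate. Each serum was taken as a separate animal. The study's text counts fewer WT rats than there are WT sera, and if sera shared an animal the p-values measure only the spread between sera.

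Named miRNAs were those called, those the study names here, those called without filterByExpr, the 3 uncalled with the smallest p each way, list members, the 5 most abundant and the other arms. miR-140, miR-652-3p and miR-30 were named after their values were seen. The members and lists were chosen with earlier results of these data known. Of 483 miRNAs with a read, 437 matched a RefSeq mature sequence by name. Alternatives were other scalings, filters and tests, each library left out, a covariate and, added after the data were seen, leaving out placebo libraries 3 and 5, also with all miRNAs with a read.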

Additional observations from a re-analysis of the deposited data

Results flagged for a closer look

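miR-192-3p in anti-sclerostin serum 1 stood apart from its group. It had no read there, against 44.4 to 76.5 CPM in the other 3 sera, a gap of 0.877 of the whole range of the group on the log2 scale. The other sera held 4 to 7 reads each. Of 76 groups of values examined in this way this was the only 1 past the 95% critical value of Dixon's test, which chance passes in about 1 of 20 groups.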

How the results depend on the processing

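Several low-count miRNAs had under 10 reads in a serum. No paired analysis was possible because the labels give the groups no shared replicate numbers. Where calls were lost the cause was not tested. The CPM filter was set anew in each fit that used it, so the number of miRNAs tested was not fixed. Of calls, against 4, there were 2 with DESeq2's size factors, 1 with miRNA totals, 27 with extraction controls, 17 with all miRNAs of 1 read, 0 with filterByExpr alone, 11 with no filter, 0 at FDR below 0.05, 0 with the ratio as covariate, 1 without placebo libraries 3 and 5 (5 with all miRNAs of 1 read), 5 in DESeq2 and 0 to 14 with a library left out. With robust = TRUE 4 were called, 3 of them shared, and miR-451-5p was not (edgeR FDR = 0.462). With all serum groups in a fit 3 were called, 2 of them higher. Interactions called, against 0, were 10 with extraction controls, 3 with all miRNAs of 1 read, 2 with no filter and 0 to 1 with a library left out. Permutation p below 0.05, against 14 miRNAs, was found for 5 to 13 with a library left out and 6 without placebo libraries 3 and 5. The erythrocyte ratio difference was −2.44 to −1.49 with a library left out, and without placebo library 2 the exact permutation p was 0.0286. The log2 fold change reversed for miR-133a-3p (1.21 with the covariate and 0.59 without placebo libraries 3 and 5), miR-99a-5p (0.14 with the covariate) and miR-144-5p (−0.75 with extraction controls). With a library left out it reversed for miR-486 (0.17 and 0.06, range −0.33 to 0.17), miR-145-5p (0.05, 0.13 and 0.13, range −0.58 to 0.13) and miR-214-3p (0.0020 and 0.21, range −0.65 to 0.21). The interaction of miR-143-3p became −0.41 with extraction controls and that of miR-199a-3p 0.49 without ZDF anti-sclerostin library 1, in a range of −1.26 to 0.49. The log2 difference of library reads reversed to 0.12, 0.07 and 0.03 and that of the miRNA share to 0.0059 with a library left out, in ranges of −0.34 to 0.12 and −0.51 to 0.0059.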

Other observations

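Members of the miR-30 family, which is broadly expressed and whose near-identical sequences may share reads, lay on the same side of 0, a pattern noticed after the values were seen. All 7 members in the fit were below 0, with a median log2 fold change of −0.91, 4 had an unadjusted p below 0.05 and 0 were called in edgeR's test at an FDR below 0.2. Over all fitted miRNAs, 91 of 171 were below 0 and 18 (10.5%) had an unadjusted p below 0.05. The exact permutation p was below 0.05 for 2 of the 7. Without placebo libraries 3 and 5 all 7 were below 0 with a median of −0.52, and 0 had an unadjusted p below 0.05. miR-30a-5p, the most abundant of the 7, had 4756 ± 1103 CPM (SD, n = 4) in anti-sclerostin sera and 8925 ± 5496 CPM (SD, n = 5) in placebo sera, −0.91 on the log2 scale (edgeR FDR = 0.352, exact permutation p = 0.143).

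WT rats given parathyroid hormone, the other bone-forming treatment, gave 5 sera that share the placebo controls. On a scale common to all serum groups, miR-143-3p was at 11460 ± 3853 CPM (SD, n = 5) under parathyroid hormone, 12120 ± 5953 CPM (SD, n = 5) under placebo and 5245 ± 1303 CPM (SD, n = 4) under anti-sclerostin. miR-199a-3p was at 317 ± 302 CPM, 702 ± 343 CPM and 177 ± 184 CPM in the same order. miR-451-5p was at 26980 ± 12750 CPM, 64850 ± 64860 CPM and 17040 ± 11660 CPM, and miR-3473 at 488 ± 423 CPM, 623 ± 342 CPM and 186 ± 71.2 CPM. These treatments were not tested against each other.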
